A study of Mus musculus with 6 samples.

Results

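The Hox genes are homeobox transcription factors that give cells their position along the head-to-tail axis. They were taken here as every gene whose symbol is Hox followed by one of the letters a to d and a number, which gave 38 of the 38926 gene symbols counted. Hoxd4, a protein-coding gene of the GENCODE annotation that overlaps Hoxd3, was not among the symbols counted. The Hox sums and shares below therefore lack it. The libraries were made from the whole dorsal root ganglia at L3 to L5 of the lumbar spine, which hold the cell bodies of the sensory neurons of the hind limb and lower trunk. Some labels name the tissue as neurons, but the extraction they describe used whole ganglia, and transcripts of glia, fibroblasts and vessels were present. The burn group was 3 libraries from male wild-type C57BL/6 mice of 6 to 8 weeks, 3 days after a burn injury, and the control group was 3 libraries from male wild-type C57BL/6 mice of the same ages. One burn library, called burn 3 here, carries a title that names the side of the injury and no number. The labels do not give the side of the other libraries or what the control animals received. The labels do not say whether each library came from a separate animal or from pooled ganglia, and p-values here measure a spread between libraries that may be technical.

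In vertebrates the Hox genes lie in 4 clusters, and within a cluster their order on the chromosome follows the order of the body levels at which they act. Genes of like number in different clusters are paralogues: groups 1 to 4 pattern the hindbrain and neck, groups 5 to 9 the neck to the trunk, group 10 the lumbar and group 11 the lumbar and sacral region, and groups 12 and 13 the tail end and the tips of the limbs. Once set in the embryo, the pattern of active and silent genes is kept by Trithorax and Polycomb group proteins, and neurons and connective tissue of the adult still carry it. In GRCm38 coordinates of the GENCODE annotation, the Hoxa genes from Hoxa2 to Hoxa13 lay over chr6:52162417-52260880 on the minus strand. The Hoxb genes, from Hoxb13 to Hoxb1, lay on the plus strand of chr11:96194316-96368256, the Hoxc genes, from Hoxc13 to Hoxc4, on the plus strand of chr15:102921103-103036852, and the Hoxd genes, from Hoxd13 to Hoxd1, on the plus strand of chr2:74668310-74765142. The tail-end genes are thus at the left end of the b, c and d clusters, and at the right end of the a cluster.

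Promoter sequences are shown for Hoxd8 and Hoxa9, which were highly expressed, for Hoxd10, a lumbar gene of middle level, and for Hoxd12, Hoxd13 and Hoxa13, which had almost no reads. They are the 250 bases before the RefSeq transcription start on GRCm38.p6, 5′ to 3′ on the gene's strand, with each CG dinucleotide, the site of DNA methylation, in capitals. The windows are chr2:74704365-74704614 (plus) for Hoxd8, chr2:74691641-74691890 (plus) for Hoxd10, chr2:74674763-74675012 (plus) for Hoxd12, chr2:74667975-74668224 (plus) for Hoxd13, chr6:52227371-52227620 (minus) for Hoxa9 and chr6:52260881-52261130 (minus) for Hoxa13. None of these windows overlapped an annotated exon, and the Hoxa9 window lies inside the longer Hoxa9 gene of the GENCODE annotation.
Hoxd8: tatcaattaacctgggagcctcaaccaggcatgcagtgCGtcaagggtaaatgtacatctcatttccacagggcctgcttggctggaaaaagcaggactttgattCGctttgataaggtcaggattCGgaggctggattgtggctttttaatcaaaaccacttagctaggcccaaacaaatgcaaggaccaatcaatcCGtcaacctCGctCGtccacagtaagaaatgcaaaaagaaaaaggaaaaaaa
Hoxd10: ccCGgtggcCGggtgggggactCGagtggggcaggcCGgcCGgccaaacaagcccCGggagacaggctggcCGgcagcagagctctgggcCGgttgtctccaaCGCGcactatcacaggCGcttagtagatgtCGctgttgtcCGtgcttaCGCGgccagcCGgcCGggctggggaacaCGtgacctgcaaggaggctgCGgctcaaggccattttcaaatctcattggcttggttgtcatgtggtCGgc
Hoxd12: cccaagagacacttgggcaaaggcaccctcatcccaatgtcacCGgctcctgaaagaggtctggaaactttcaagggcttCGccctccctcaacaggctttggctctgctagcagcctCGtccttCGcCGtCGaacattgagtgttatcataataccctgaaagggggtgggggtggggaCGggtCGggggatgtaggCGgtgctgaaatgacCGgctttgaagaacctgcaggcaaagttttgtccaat
Hoxd13: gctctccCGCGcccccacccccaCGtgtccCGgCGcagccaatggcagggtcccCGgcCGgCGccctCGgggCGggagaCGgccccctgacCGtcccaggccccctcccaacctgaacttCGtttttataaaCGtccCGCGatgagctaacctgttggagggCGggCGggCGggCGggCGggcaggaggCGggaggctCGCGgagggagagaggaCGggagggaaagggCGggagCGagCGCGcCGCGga
Hoxa9: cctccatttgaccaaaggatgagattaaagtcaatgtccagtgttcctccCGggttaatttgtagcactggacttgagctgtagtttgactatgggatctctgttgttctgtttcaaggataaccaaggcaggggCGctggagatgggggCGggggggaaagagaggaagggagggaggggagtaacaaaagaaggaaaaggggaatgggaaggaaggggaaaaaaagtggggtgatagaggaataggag
Hoxa13: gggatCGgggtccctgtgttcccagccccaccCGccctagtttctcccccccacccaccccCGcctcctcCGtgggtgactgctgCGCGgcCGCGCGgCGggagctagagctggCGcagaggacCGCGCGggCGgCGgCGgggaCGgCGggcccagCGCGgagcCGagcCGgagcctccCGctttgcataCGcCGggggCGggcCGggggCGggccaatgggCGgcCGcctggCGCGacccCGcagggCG
The promoters of the highly expressed Hoxd8 and Hoxa9 held 6 and 3 CG dinucleotides with a G+C content of 44.4% and 49.6%. The promoters of the almost silent Hoxa13 and Hoxd13 held 35 and 31, with a G+C content of 80.0% and 74.4%. The Hoxd12 promoter, of a gene with no reads at all, held 10 at 55.6%, and that of Hoxd10 held 20 at 65.6%, so the number of CG dinucleotides did not order these 6 genes by level. RefSeq windows were found for 21 of the 38 genes, 23 windows in all, since Hoxa10 and Hoxd11 have a pair each. Their median was 13 CG dinucleotides and 59.2% G+C, against 6 and 52.4% in all 32851 RefSeq windows, and 15 of the 23 held at least 10, as did 37.8% of all windows. The TATA box letters TATAAA, searched on both strands, were in 3 of the 23 windows (Hoxa10, Hoxb8 and Hoxd13) and in 12.4% of all windows. The HOX-PBX motif TGATNNAT, searched on both strands, was in 4 of the 23 windows (Hoxa2, Hoxb1, Hoxb8 and Hoxd11) and in 7.7% of all windows.

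Library depth, the reads counted in genes, was 22023565, 30074469 and 70002671 in burn 1 to 3 and 35991111, 17273908 and 81968142 in control 1 to 3. Hox reads numbered from 4591 in control 2 to 21449 in control 3, which is 229.0 to 269.3 in counts-per-million (CPM) units before scaling. Sensory neuron transcripts marked the tissue as ganglion: Tubb3, a neuronal tubulin, was at 1949 to 2594 CPM in the burn libraries and at 2120 to 2869 CPM in the control libraries. Transcripts of other cells were present too. The sum of 12 skeletal muscle transcripts was 3000, 11210 and 1923 CPM in burn 1 to 3 and 12310, 4104 and 724.8 CPM in control 1 to 3. In whole tissue, fewer cells of a type and less RNA per cell cannot be told apart.

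The adult lumbar ganglion expressed Hox genes of groups 1 to 11 and almost none beyond. Of the 38 genes, 31 had reads in all 6 libraries, and 28 had a mean of at least 1 CPM. The other 7 had too few reads to be tested, and 6 of them belong to groups 12 and 13. Summed over all 38 genes, the Hox level was 262.0, 245.2 and 243.9 CPM in burn ganglia, a mean of 250.3 ± 10.09 CPM (SD, n = 3). In control ganglia the sum was 249.0, 255.5 and 269.5 CPM, a mean of 258.0 ± 10.49 CPM (SD, n = 3). The sums of the 2 groups overlapped.

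**Figure D1:**
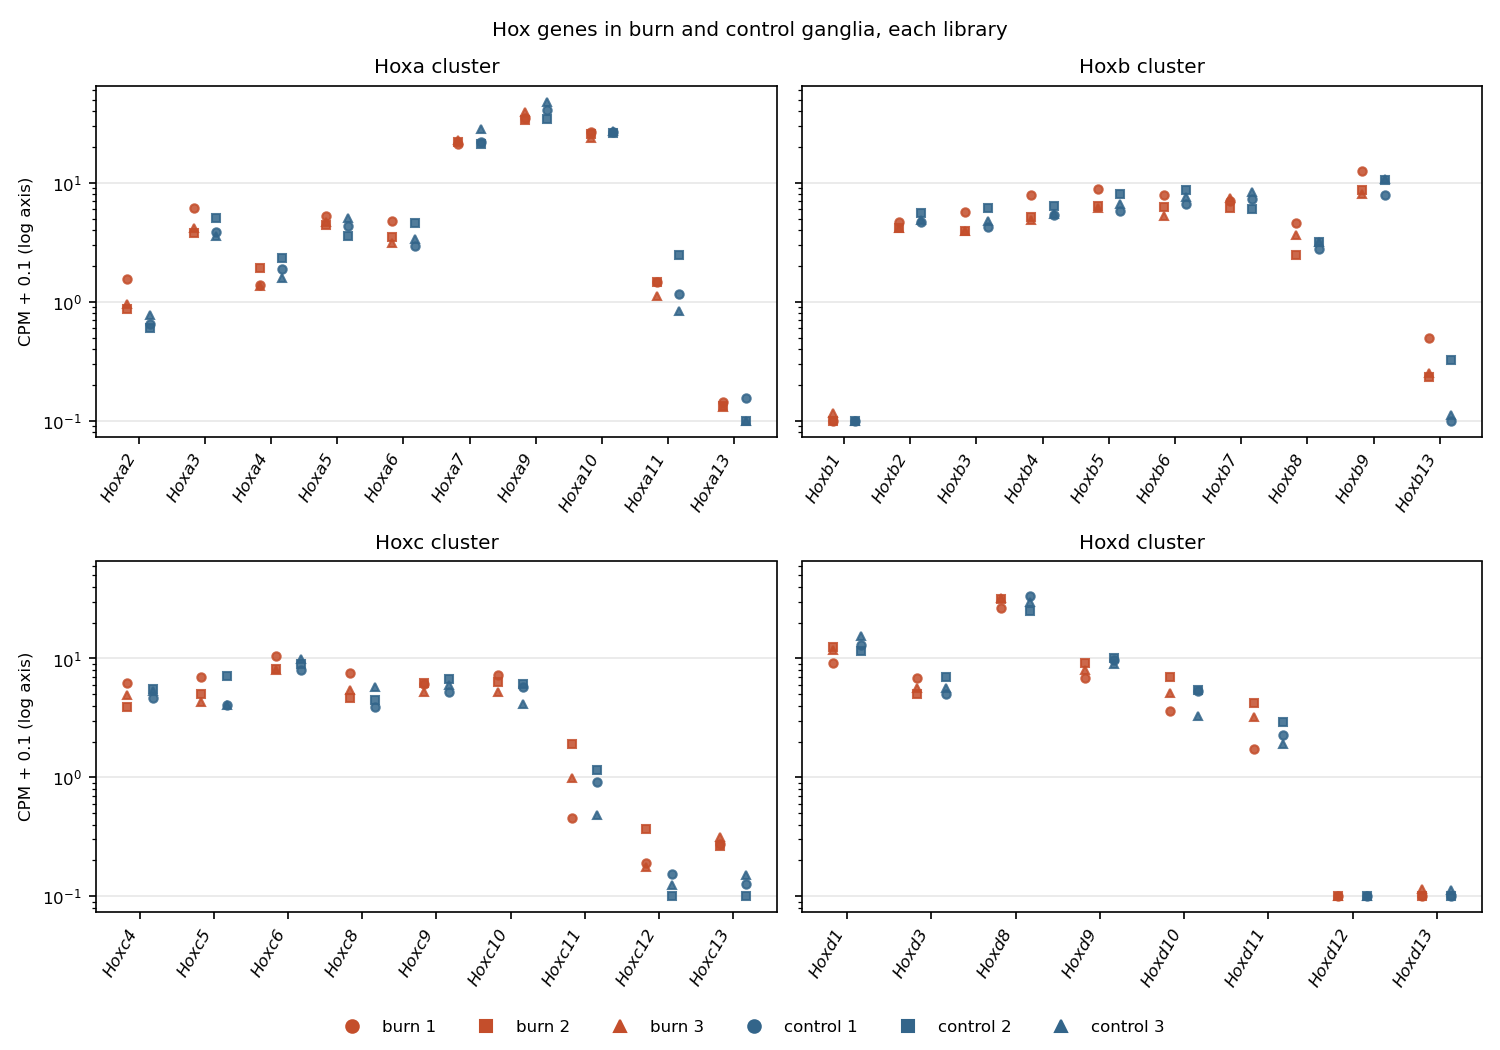
Level of Hox genes in each library, in CPM plus 0.1 on a log axis, by cluster and in order of paralogue number. Burn libraries are red and left of the blue control libraries, with a symbol for each replicate, and the genes at 0.1 (Hoxd12 in all 6 libraries) had no reads. Burn and control points of a gene lie close together, and each cluster drops to near 0.1 at groups 12 and 13.

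Hoxa9, a group 9 gene of the trunk, had the most reads of all. It stood at 35.16, 34.04 and 39.68 CPM in burn ganglia and at 40.80, 34.17 and 47.97 CPM in control ganglia. Hoxd8 followed with 26.50, 31.36 and 31.97 CPM in burn ganglia and 33.51, 25.10 and 29.59 CPM in control ganglia. Hoxa10, whose group in mice keeps ribs from forming on lumbar vertebrae, was at 26.72, 25.50 and 23.61 CPM in burn ganglia and 26.76, 26.32 and 27.42 CPM in control ganglia. Hoxa7 came next with 21.33, 22.09 and 22.69 CPM in burn ganglia and 21.93, 21.09 and 28.58 CPM in control ganglia. In each of these 4 genes the burn and control values overlapped. Together they took 41.88%, 46.08% and 48.37% of the Hox reads of burn ganglia and 49.39%, 41.76% and 49.55% of those of control ganglia.

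Levels of different genes can be compared only per length, here as CPM per kilobase of annotated exon, averaged over the 6 libraries. On that scale Hoxd8 ranked highest with a mean of 10.81 and a range of 9.15 to 12.21 over the libraries. Hoxa7 had 7.98 (range 7.33 to 9.94), Hoxa10 had 7.97 (7.22 to 8.39), Hoxa9 had 6.92 (6.10 to 8.60) and Hoxd1 had 6.54 (4.89 to 8.23), each with a range that overlapped that of the gene ranked just above it. Compared within each library, Hoxd8 stood above Hoxa7 in all 6, whereas the order of Hoxa7, Hoxa10, Hoxa9 and Hoxd1 varied between libraries. Hoxb7 was the sixth with 4.52 (3.86 to 5.34). The ranks depend on the length used: with the principal transcript of each gene in place of all its exons, a choice made after seeing the data, Hoxd8 stayed at the top with 53.3, ahead of Hoxa9 with 11.98, Hoxa7 with 11.42 and Hoxd1 with 6.54, while Hoxa10 had no such length. The Hoxd8 principal transcript is 557 bases against 2744 bases of exon in all. No source used here names the annotation release of the counting, so these lengths are approximate.

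Along the Hoxa cluster from Hoxa2 on, the level per kilobase of exon increased with paralogue number up to group 7, stayed high through groups 9 and 10 and dropped at group 11. It was 0.450 for Hoxa2, 0.721 for Hoxa3, 1.03 for Hoxa4, 2.38 for Hoxa5 and 4.15 for Hoxa6, all below the 7.98 of Hoxa7. From Hoxa10 with 7.97 it dropped to 0.579 for Hoxa11 and 0.0109 for Hoxa13, the last of the cluster and in mice needed for digits and the genital tract. Hoxa10 and Hoxa11 are neighbours on the chromosome, and their ranges over the libraries, 7.22 to 8.39 for Hoxa10 and 0.324 to 1.05 for Hoxa11, were far apart. With principal transcript lengths Hoxa3, at 1.67, still stood between Hoxa2 and Hoxa5 but above Hoxa4.

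**Figure D2:**
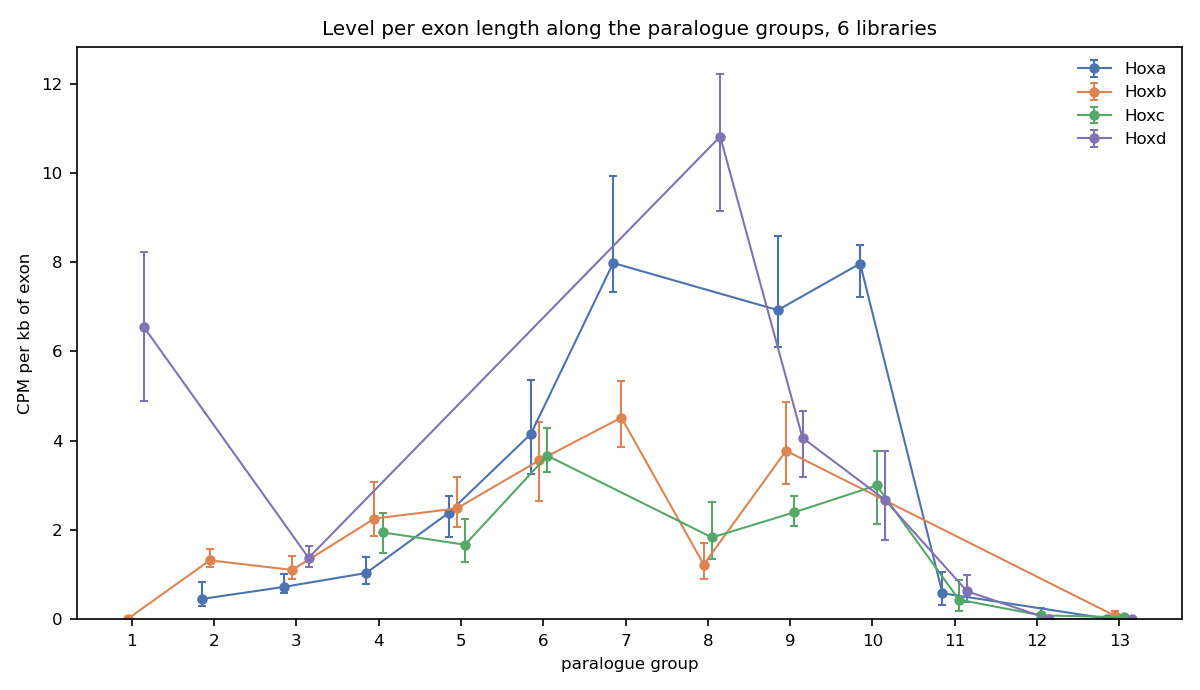
Level of Hox genes in CPM per kilobase of exon (vertical axis) by paralogue group (horizontal axis), as the mean of the 6 libraries, with bars from the lowest to the highest library. Lines join the plotted genes of 1 cluster and pass over groups that have no point in it. Hoxd8 and Hoxa7 to Hoxa10 stand highest, Hoxd1 stands apart at the low end, and all clusters are near 0 at groups 12 and 13.

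The Hoxb and Hoxc genes spanned a narrower range. In the Hoxb cluster the group 2 to 9 genes lay between 1.101 (Hoxb3) and 4.52 (Hoxb7) CPM per kilobase, with Hoxb9, a trunk gene, at 3.77. Hoxb8, known in mice for excess grooming when it is lost, was lower than both its neighbours at 1.22, against 4.52 for Hoxb7 and 3.77 for Hoxb9, and their ranges over the libraries did not overlap its own (0.905 to 1.71). In the Hoxc cluster, which in the spinal cord sets the identity of limb and trunk motor neurons, Hoxc6 was highest at 3.66, and Hoxc4, Hoxc5, Hoxc8, Hoxc9 and Hoxc10 lay between 1.67 and 2.996. Hoxc10, a lumbar gene, had 2.996 (2.13 to 3.77), against 0.435 (0.175 to 0.885) for its neighbour Hoxc11.

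The Hoxd cluster did not follow the order of its genes. Hoxd1, the gene farthest toward the head end and, in mice, one that acts in the wiring of pain-sensing neurons, had 6.54 CPM per kilobase, against 0.00109 for its paralogue Hoxb1. Its level was 9.10, 12.48 and 11.73 CPM in burn ganglia and 12.94, 11.52 and 15.32 CPM in control ganglia, whereas Hoxb1, which in mice specifies a hindbrain segment, had 1 read in burn 3 and none in the other 5 libraries. Hoxd3 had 1.37 and Hoxd8 10.81 CPM per kilobase, and the level then stepped down with Hoxd9 (4.06), Hoxd10 (2.68) and Hoxd11 (0.622) to Hoxd12, with no reads, and Hoxd13, with 1 read in burn 3 and 1 in control 3. A count of 0 allows up to 3 reads, or 0.0366 to 0.174 CPM of Hoxd12 depending on the library, which covers counting error only.

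Some values may hold reads of overlapping transcripts, since no source used here says whether strand was used in counting. In the GENCODE annotation 52.9% of the exon bases of Hoxb3 and 27.3% of those of Hoxb2 lie opposite Hoxb3os, a noncoding RNA, 35.0% of those of Hoxa11 opposite Hoxa11os, and 20.4% of those of Hoxa7 opposite Hoxaas3. On the same strand, Hoxd3 shares 53.1% of its exon bases with the model Gm28230, and Hoxc5 and Hoxc10 share 166 bases. HTSeq commonly leaves out reads that fall in more than 1 counted gene, so genes that overlap a counted one may be undercounted. Hoxa11os and Hoxb3os were among the genes counted, whereas Hoxaas3 was not.

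Genes of groups 9 to 13, which act from the trunk to the tail end, supplied close to the same share of Hox reads in all 6 libraries. The share was 38.96% (95% Wilson interval 37.73 to 40.21), 42.51% (41.39 to 43.64) and 41.0% (40.24 to 41.77) in burn 1 to 3. In control 1 to 3 it was 42.2% (41.19 to 43.21), 41.3% (39.88 to 42.73) and 41.22% (40.56 to 41.88). The means were 40.83% ± 1.78 in burn and 41.57% ± 0.544 in control ganglia (SD, n = 3 each), so the difference was smaller than the spread between the burn libraries. Their summed level was 102.1, 104.2 and 99.99 CPM in burn ganglia and 105.1, 105.5 and 111.1 CPM in control ganglia. All burn sums lay below all control sums, as did the values of 2.91% of all tested genes taken singly, and the sum was not tested. Groups 5 to 8 supplied 42.17%, 40.62% and 41.82% in burn and 40.36%, 39.14% and 41.23% in control ganglia. Groups 1 to 4 supplied 18.87%, 16.87% and 17.18% in burn and 17.45%, 19.56% and 17.55% in control ganglia. The intervals cover counting error only, since the reads carry no molecular identifiers.

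By cluster, Hoxa genes held 39.67%, 39.96% and 41.71% of the Hox reads in burn ganglia and 42.08%, 39.27% and 44.26% in control ganglia. Hoxd genes held 20.72%, 28.05% and 26.77% in burn ganglia and 27.45%, 24.11% and 23.86% in control ganglia. The share of the Hoxb genes was 22.58%, 17.37% and 17.68% in burn ganglia and 17.66%, 21.19% and 18.95% in control ganglia, and that of the Hoxc genes 17.03%, 14.63% and 13.85% in burn ganglia and 12.82%, 15.42% and 12.93% in control ganglia. The groups overlapped for each cluster. Burn 1 had the lowest Hoxd share and the highest Hoxb and Hoxc shares of all 6 libraries.

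**Figure D3:**
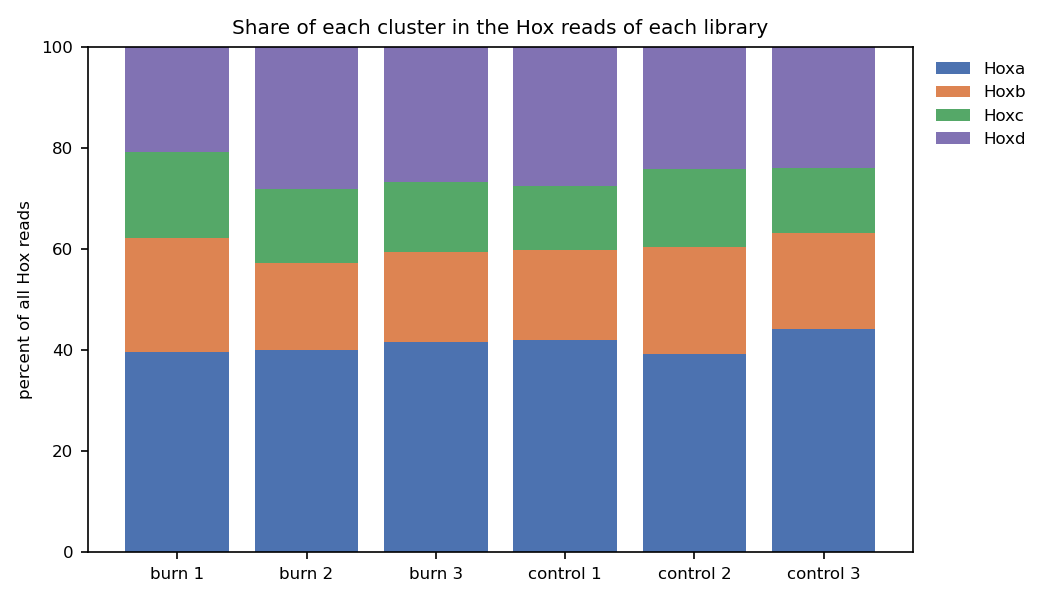
Percent of all Hox reads (vertical axis, stacked to 100) from each of the 4 clusters in the 3 burn and 3 control libraries. The Hoxa cluster supplies 39.27% to 44.26% in each, and burn 1 has the lowest Hoxd share, 20.72%.

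The burn comparison asked whether the injury changed gene expression in the ganglia that supply the lower back and hind limb. No Hox gene changed by the test across all genes. edgeR's quasi-likelihood test called 0 of the 31 tested Hox genes at a Benjamini-Hochberg adjusted p under 0.05 (0.9998 for each of them), where it called 4 of all 17534 tested genes (0.0228%). At an unadjusted p under 0.05 it again counted 0 Hox genes, against 519 of all genes (2.96%, of which 2.04% were higher and 0.924% lower in burn). DESeq2 and limma-voom also called 0 Hox genes, against 0.104% and 0.0171% of all genes. The fitted log2 fold changes, burn over control, were above 0 for 14 Hox genes and below 0 for 17, with a median of −0.008, beside 0.008 over all tested genes. They ran from −0.32 (Hoxa4) to 0.77 (Hoxa2), and 26 of the 31 were smaller than 0.3 in size. Standard errors ran from 0.104 for Hoxa10 to 0.598 for Hoxc11. For the thinly read group 11 genes, at 0.35 to 0.598, a change of moderate size was not detectable. The number of reads did not order the standard errors: Hoxa2, with 195 reads in all, had 0.332, and Hoxc11, with 199, had 0.598.

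**Figure D4:**
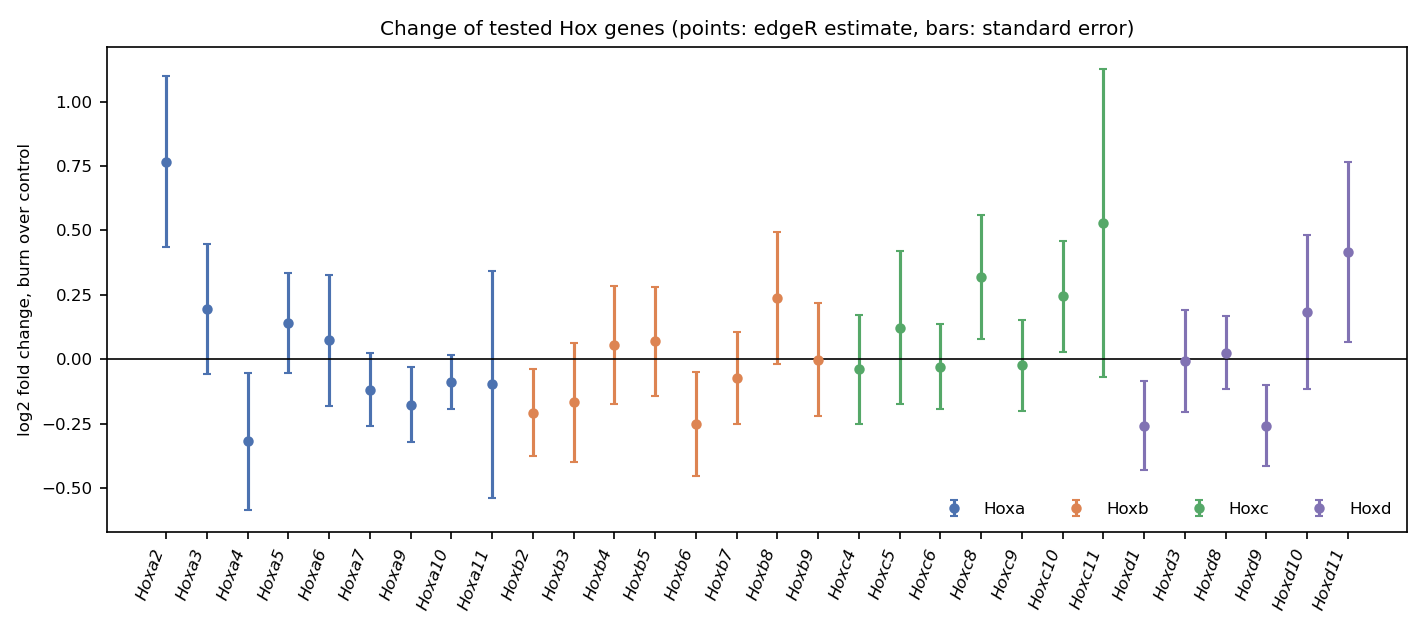
Fitted log2 fold change of tested Hox genes, burn over control (vertical axis), with bars of 1 standard error on each side, in order of cluster and paralogue number. Most points lie within 0.3 of the line at 0, and Hoxa2 has the highest estimate, 0.77.

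Hoxa2, which in mice patterns the hindbrain and the second pharyngeal arch, had the lowest p of the tested Hox genes and was weakly expressed. Its reads were 33, 23 and 56 in burn ganglia and 20, 9 and 54 in control ganglia, which is 1.46, 0.762 and 0.852 CPM in burn ganglia and 0.546, 0.501 and 0.679 CPM in control ganglia. All burn values lay above all control values, and burn 1 stood highest. Hoxa2 was the 1 of 31 Hox genes (3.23%) whose groups did not overlap, beside 7.24% of all tested genes (4.33% higher and 2.91% lower in burn). The log2 fold change was 0.77 with a standard error of 0.33 (adjusted p 0.9998 in edgeR), and without burn 1 it was 0.46. Of its exon bases, 267 are shared on the same strand with the model Gm28308.

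The trunk genes of group 9 had estimates below 0 in all 4 clusters, those of Hoxb9 and Hoxc9 close to 0 and none of them past the test. Hoxd9 was at 6.80, 9.04 and 7.83 CPM in burn ganglia and 9.61, 9.96 and 8.81 CPM in control ganglia, with a log2 fold change of −0.26 (SE 0.157). Only the highest burn library reached into the control values. For Hoxa9 the mean was 36.29 ± 2.99 CPM in burn and 40.98 ± 6.90 CPM in control ganglia (SD, n = 3 each), a log2 fold change of −0.18 (SE 0.145). Hoxb9 had 12.54, 8.61 and 8.02 CPM in burn ganglia and 7.81, 10.52 and 10.76 CPM in control ganglia, with a log2 fold change of −0.001 (SE 0.218), and its sign turned in 8 of the 16 alternative settings. Hoxc9, which in the mouse spinal cord holds back the limb-level program, had 5.76 ± 0.57 CPM in burn and 5.86 ± 0.80 CPM in control ganglia (SD, n = 3 each). Its log2 fold change was −0.023. Summed, group 9 stood at 60.6, 57.8 and 60.6 CPM in burn ganglia and 63.3, 61.3 and 73.4 CPM in control ganglia. All burn sums lay below all control sums, as did the values of 2.91% of all tested genes taken singly. As a share of Hox reads the groups overlapped, at 23.12%, 23.58% and 24.87% in burn and 25.42%, 24.0% and 27.22% in control ganglia. The sum was not tested.

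Hoxd1 and Hoxb6 also had estimates below 0 with overlapping groups. Hoxd1 averaged 11.10 ± 1.78 CPM in burn and 13.26 ± 1.92 CPM in control ganglia (SD, n = 3 each), a log2 fold change of −0.26 (SE 0.173). Hoxb6 was at 7.77, 6.19 and 5.19 CPM in burn ganglia and 6.55, 8.68 and 7.52 CPM in control ganglia, a log2 fold change of −0.25 (SE 0.201). Hoxc8, which in mice marks the lower neck and upper trunk, had the opposite sign. It was at 7.42, 4.57 and 5.32 CPM in burn ganglia and 3.82, 4.34 and 5.61 CPM in control ganglia, a log2 fold change of 0.32 (SE 0.242), with burn 1 above the rest. Hoxd8 and Hoxc6, each the most read gene of its cluster, had log2 fold changes of 0.026 (SE 0.141) and −0.029 (SE 0.166).

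Among the lumbar and sacral genes of groups 10 and 11, Hoxa10 was the steadiest tested Hox gene, with an SD of 0.067 on the log2 scale within groups, and Hoxc11 the most variable, with 0.928. Hoxd10, which in mice acts in lumbar motor neurons, had 3.53, 6.82 and 5.07 CPM in burn ganglia and 5.19, 5.34 and 3.20 CPM in control ganglia. Hoxd11 had 1.63, 4.14 and 3.13 CPM in burn ganglia and 2.16, 2.84 and 1.82 CPM in control ganglia, and Hoxc11 had 0.353, 1.79 and 0.882 CPM in burn ganglia and 0.819, 1.06 and 0.377 CPM in control ganglia. In these 3 genes burn 2 was the highest library and the groups overlapped. Group 11 as a whole took 1.28%, 2.97% and 2.06% of the Hox reads in burn ganglia and 1.62%, 2.46% and 1.09% in control ganglia. Its sum in burn 2, 7.29 CPM, was the highest of all 6, and control 3, with 2.94 CPM, the lowest.

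The tail-end genes of groups 12 and 13 were near the limit of detection. The 3 with the most reads, Hoxc13, Hoxb13 and Hoxc12, had more of them in the burn libraries. Hoxc13, in mice a gene of hair and nails, had 4, 5 and 14 reads in burn ganglia and 1, 0 and 4 reads in control ganglia. Hoxb13, in mice a gene of the tail and the prostate, had 9, 4 and 10 reads in burn ganglia and 0, 4 and 1 reads in control ganglia. Hoxc12 had 2, 8 and 5 reads in burn ganglia and 2, 0 and 2 reads in control ganglia. The others had too few reads for such a comparison. Hoxa13 had 1, 1 and 2 reads in burn ganglia and 2, 0 and 0 reads in control ganglia. Its pooled ratio of burn to control was 2.215, with a 95% exact interval of 0.3175 to 24.49. Hoxd13 had 1 read in each group, and Hoxd12 had none. In CPM, Hoxc13 and Hoxc12 were higher in each burn library than in any control library, whereas Hoxb13 overlapped. Of all 3684 untested genes with 10 to 50 reads in all, 8.09% likewise had every burn library above every control library. Pooled over libraries, the ratio of burn to control was 5.10 for Hoxc13 and likewise for Hoxb13 (95% exact interval 1.89 to 17.2 for each), and 4.15 for Hoxc12 (1.32 to 17.2), intervals that cover counting error and not the spread between libraries. These genes did not pass the filter on low counts. With no filter, edgeR gave an unadjusted p of 0.00815 for Hoxc13, 0.0409 for Hoxc12 and 0.0578 for Hoxb13, each with an adjusted p of 0.921, and DESeq2 gave 0.0366 for Hoxc13 with an adjusted p of 0.9999.

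Transcripts of the spinal cord, which lies beside the ganglia and has Hox expression of its own, were also more abundant in the burn libraries. Of a list of 13 such transcripts, 12 were tested and 0 called, but 10 were higher at an unadjusted p under 0.05 (2.04% of all genes were), and the median log2 fold change was 1.37. Their sum was 63.74, 43.68 and 80.87 CPM in burn ganglia and 44.76, 32.16 and 28.94 CPM in control ganglia, which overlapped. Aqp4, the most abundant of them, was at 31.67, 24.9 and 41.92 CPM in burn ganglia and 28.43, 17.69 and 20.36 CPM in control ganglia. Without Aqp4, a choice made after seeing the data, every burn sum lay above every control sum. So did the values of 4.33% of all tested genes taken singly, and neither sum was tested. Slc6a5, the glycine transporter of inhibitory spinal neurons, was at 8.44, 4.34 and 11.7 CPM in burn ganglia and 3.88, 2.67 and 1.35 CPM in control ganglia. Chat, the acetylcholine enzyme of motor neurons, had 10, 6 and 30 reads in burn ganglia and 9, 0 and 8 reads in control ganglia. Group 13 summed to 0.618, 0.331 and 0.411 CPM in burn ganglia and 0.0819, 0.223 and 0.0754 CPM in control ganglia. Its highest library was burn 1 among the burn libraries and control 2 among the controls. The spinal cord sum was highest in burn 3 and in control 1, as was Aqp4 alone. Members of the list differed in this order. Slc6a5 was highest in burn 3 and control 1, whereas Mog was highest in burn 1 (5.345 CPM) and control 2 (1.558 CPM). The part of the spinal cord transcripts in the group 12 and 13 reads was not tested.

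**Figure D5:**
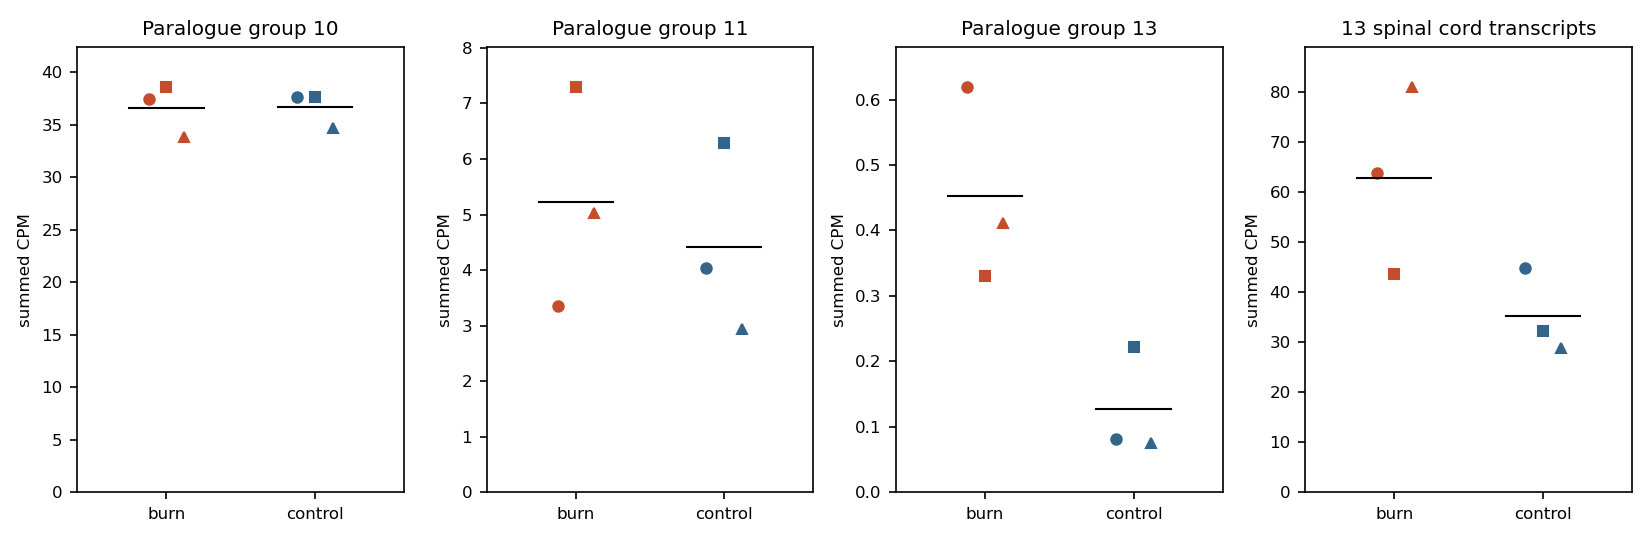
Summed CPM (vertical axis, from 0) of Hox paralogue groups 10, 11 and 13 and of 13 spinal cord transcripts in each burn (red, left) and control (blue, right) library. Circles, squares and triangles are replicates 1, 2 and 3, and lines are group means. Groups 10 and 11 overlap. Group 13, with 3 to 27 reads a library, does not (0.331 to 0.618 CPM in burn, 0.0754 to 0.223 CPM in control libraries). Of untested genes with 10 to 50 reads in all, taken singly, 8.09% likewise had every burn library above every control library. The spinal cord sums overlap at 43.68 in burn 2 and 44.76 in control 1, and without Aqp4 they do not.

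Hox levels differed between libraries of the same group. Burn 1 was the highest burn library for 19 of the 31 tested genes (32.7% of all tested genes), control 2 was the highest control library for 18 (39.8% of all), and 12 genes were highest in both (21.5% of all), among them 5 of the 8 tested Hoxb genes. Hoxb5, for example, was at 8.88, 6.29 and 6.05 CPM in burn ganglia and 5.74, 7.90 and 6.60 CPM in control ganglia. Hoxa7, Hoxd1 and Hoxd8 went the other way, with their lowest values of each group in burn 1 and control 2. Hoxc5 was at 6.94, 4.93 and 4.18 CPM in burn ganglia and 3.96, 6.96 and 3.92 CPM in control ganglia. The median SD within groups was 0.269 on the log2 scale over the Hox genes, beside 0.214 over all tested genes. Burn 1 and control 2 were also the shallowest libraries. Over all genes, deviations from the group means correlated with an r of 0.438 for burn 1 with control 2, 0.382 for burn 2 with control 1 and 0.444 for burn 3 with control 3 (values across genes, which are not independent). Deviations cancel out within a group, so each burn library is bound to correlate positively with some control library. The sum of 6 endothelial transcripts was 210.1, 167.5 and 159.7 CPM in burn ganglia and 156.8, 226.3 and 168.9 CPM in control ganglia. For 7 fibroblast transcripts it was 7021, 3694 and 3576 CPM in burn ganglia and 6878, 8192 and 4404 CPM in control ganglia. Both sums were thus highest in burn 1 among the burn libraries and in control 2 among the controls. Not all members followed the sums: among the controls Dcn and Dpt were highest in control 1 and Cldn5 in control 3. Lum was highest in burn 3 and control 3. The other members followed, Kdr by a thin margin in the controls. The sum of 10 sensory neuron transcripts was instead lowest in burn 1 and control 2, as Hoxa7, Hoxd1 and Hoxd8 were. It was 7655, 9034 and 7830 CPM in burn ganglia and 8178, 7905 and 10170 CPM in control ganglia. Its members Tubb3, Uchl1, Prph and Avil did not follow in both groups. The sums of the other cell type lists were not at the same end in both libraries. The part of any of these sums in the Hox levels was not tested.

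Since depth varied widely, the burn and control libraries were also set side by side at like depth. Between the deepest pair, burn 3 and control 3, the median log2 difference over the 31 genes was −0.118, and between the mean of burn 1 and 2 and that of control 1 and 2 it was −0.008. The sign was the same in both for 17 of the 31 genes. Hoxb9 differed by −0.42 in the deep pair and by 0.196 in the shallower libraries, and Hoxc11 by 1.04 in the deep pair and −0.157 in the shallower ones, so neither kept a direction. Hoxd9 was lower in burn in both (−0.167 and −0.316), as was Hoxa9 (−0.273 and −0.11).

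The partners and regulators of the Hox genes did not pass the test either. HOX proteins bind DNA with cofactors of the PBX, MEIS and PKNOX (PREP) families, and of 9 such genes all were tested and 0 called, with a median log2 fold change of 0.013. Pknox2 averaged 46.93 ± 5.20 CPM in burn and 46.41 ± 4.58 CPM in control ganglia, and Pbx2 averaged 40.77 ± 0.18 CPM in burn and 41.70 ± 3.27 CPM in control ganglia (SD, n = 3 each).

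Polycomb genes, which keep Hox genes silent, were all 14 tested, with 0 called, 8 estimates above 0 and a median of 0.018. Ezh1, a histone methyltransferase of this group, averaged 91.63 ± 4.28 CPM in burn and 88.60 ± 2.58 CPM in control ganglia (SD, n = 3 each). The 6 Trithorax genes, which keep Hox genes active, had 0 called, 4 estimates above 0 and a median of 0.089. Ash1l, the most abundant, averaged 154.6 ± 24.4 CPM in burn and 130.5 ± 12.4 CPM in control ganglia, and Kmt2a averaged 97.18 ± 15.88 CPM in burn and 80.76 ± 19.09 CPM in control ganglia (SD, n = 3 each), both overlapping.

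Embryonic activators of Hox genes were partly silent. Of 7 such genes 4 were tested and 0 called, with a median of 0.033, and Cdx2 and Cdx4, which in mice start the trunk Hox genes in the embryo, had no reads in any library. Gdf11, a secreted factor that in mice sets the start of the lumbosacral Hox genes, was present at 32.17 ± 1.497 CPM in burn and 31.04 ± 2.95 CPM in control ganglia (SD, n = 3 each). The retinoic acid receptor Rarg averaged 30.70 ± 2.43 CPM in burn and 32.52 ± 7.19 CPM in control ganglia (SD, n = 3 each). Of 12 noncoding RNAs listed for the clusters, only 3, Hotair, Hoxa11os and Hoxb3os, were among the genes counted. Of these, 2 had enough reads to be tested and 0 were called. Hoxb3os had 2.96 ± 0.53 CPM in burn and 2.80 ± 0.22 CPM in control ganglia (SD, n = 3 each).

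Genes at and beyond the ends of the Hox range were nearly silent. Evx1 and Evx2, homeobox genes next to the tail ends of the Hoxa and Hoxd clusters, had at most 3 reads in a library. Of 9 genes that mark levels of the head, 0 had enough reads to be tested, and their sum was 0.398, 0.331 and 0.548 CPM in burn ganglia and 1.07, 0.390 and 0.163 CPM in control ganglia. En1, at most 28 reads in a library, had most of them.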

How the data were processed

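The files the authors deposited, 1 for each library, give whole-number read counts for each gene symbol, from stranded total RNA read as single ends of 75 nucleotides. Per the submitters' processing notes STAR, SAMtools and HTSeq were used with mm10 and GRCm38, without versions, and no source used here names the annotation release or the strand setting. In each file 5 tally lines name no gene and hold 49.18% to 56.22% of all entries (34.66% to 42.84% were alignments that were not unique), and neither library sizes nor tests include them.

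The test was edgeR 4.0.16 in R 4.3.3 (filterByExpr with a minimum count of 10 and a minimum total of 15, TMM scaling, robust glmQLFit and glmQLFTest, two-sided, group as the only term), over 17534 genes, with Benjamini-Hochberg adjustment over all of them. CPM values use the scaled library sizes, and 0.1 CPM was added before logs in the comparison at like depth. DESeq2 1.42.0 and limma-voom (limma 3.58.1) were alternatives, as were other scalings and filters, a depth term, a block for the replicate number and each library left out in turn. The test was checked on simulated data. Within groups all pairs of libraries differed by more than sampling noise, so none was counted as a repeat.

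Full statistics are given for the 6 tested Hox genes with the lowest p and the most read gene of each cluster, and for up to 3 of each other list by CPM. The genes and lists were chosen with earlier results of these data known. Spinal cord genes and genes of groups 10 to 13 beyond that rule were named after their values were seen. Exon lengths and overlaps come from GENCODE M21 (GRCm38), promoter windows from RefSeq (GRCm38.p6). Intervals are 95% Wilson intervals for shares and exact binomial intervals for pooled ratios. Values of 2 genes are not reported here, and the genes stay in the counts and sums.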

Additional observations from a re-analysis of the deposited data

How the results depend on the processing

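No Hox gene was called under any of the 16 alternatives, in which all-gene calls (4 in the test as reported) numbered 14 with no filter, 28 in DESeq2, 38 with a term for the 2 deeper libraries, 15 in the 4 shallower libraries alone and 1 to 6 with 1 library left out. The median Hox log2 fold change, −0.008, ran from −0.124 (without burn 1) to 0.064 with 1 library left out. The share of Hox reads from groups 9 to 13, burn minus control, was −0.745 percentage points, from −1.588 to 0.1859 with 1 library left out, 0.948 for groups 10 to 13 and, added after seeing the data, 0.558 for groups 11 to 13. Signs near 0 turned: Hoxb9 had 0.005 with RLE scaling, 0.013 with at least 1 CPM in 3 libraries, 0.216 with the replicate block, 0.227 in the 4 shallower libraries and −0.223 to 0.135 with 1 library left out. Hoxc6 had 0.118 with the replicate block, 0.124 in the shallower libraries and −0.16 to 0.054 with 1 left out. Hoxd8 had −0.003 with library totals only, −0.01 in the shallower libraries and −0.075 to 0.129 with 1 left out. The cause was not tested. Hoxa9, Hoxb6, Hoxc8, Hoxd1 and Hoxd9 kept their sign in all 16, and Hoxa2 in the 15 that tested it, the filter of at least 1 CPM in 3 libraries having removed it. Their size moved by over 1.5 times with 1 library left out: Hoxa9 was −0.041 without control 3 and −0.292 without control 2, Hoxb6 −0.105 without burn 3, −0.149 without control 2 and −0.414 without burn 1, Hoxc8 0.103 without burn 1, 0.199 without control 1 and 0.507 without control 3, Hoxd1 −0.132 without control 3 and −0.137 without burn 1, Hoxd9 −0.166 without burn 1, and Hoxa2 0.459 without burn 1. Replicates 1 and 2 share only a number with their controls (r of their deviations −0.09 and −0.055), and burn 3, whose label has no number, had 0.444 with control 3, the other deep library. With the number as a block, over those 4 libraries, 4 genes and 0 Hox genes were called. Where 1 library was left out, a group kept 2. Reads were few in groups 11 to 13, at 92 to 363 a library, and Hoxc11 varied most within groups (SD 0.928 on the log2 scale).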
